A study of Homo sapiens with 43 samples.

Results

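The primary transcripts of the let-7 microRNA family were examined in eCLIP peak lists from HEK293T cells, a human embryonic kidney line. The rule took 6 windows of the build hg19, which together hold 10 let-7 hairpins, and kept the peaks that overlapped a window by at least 1 nt on the strand of the primary transcript. It found 127 peaks among the 1430241 peaks called in 25 immunoprecipitation libraries. The windows were chromosome 9 from 96938000 to 96941500 on the plus strand (MIRLET7A1, MIRLET7F1 and MIRLET7D), chromosome 22 from 46508400 to 46509900 on the plus strand (MIRLET7A3 and MIRLET7B) and chromosome 3 from 52302050 to 52302600 on the minus strand (MIRLET7G). The others were chromosome 12 from 62997200 to 62997800 on the plus strand (MIRLET7I), chromosome 11 from 122017000 to 122017550 on the minus strand (MIRLET7A2) and chromosome X from 53582950 to 53584500 on the minus strand (MIRLET7F2 and MIR98).

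eCLIP crosslinks RNA-binding proteins to RNA with ultraviolet light, immunoprecipitates the protein and sequences the attached RNA fragments, here beside an input cut from the same gel region. Native antibodies against HNRNPC, FMR1, RBFOX2, LIN28 and DGCR8 gave 5 libraries, written wt in the labels. Cells with a tag in the endogenous gene gave 6 libraries. In 2 of them the FLAG tag was on FMR1 or DGCR8, and in 4 the V5 tag was on LIN28, RBFOX2 or either of 2 HNRNPC isoforms. The last 14 libraries, labelled FLAG-only or V5-only with no protein named, cover 7 overlapping gel ranges, each 75 kDa wide, with either tag antibody, and serve as background. It is not stated whether the cells behind them carried a tag. All libraries came from HEK293T cells. Each protein and tag state had 1 library, so no difference between libraries was tested, and all values below are descriptions of single libraries. The labels do not state which LIN28 paralog was profiled or whether the tagged cells were single clones.

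let-7 microRNAs are made in steps. In the nucleus DGCR8 holds the primary transcript for the nuclease DROSHA, which cuts out a hairpin, and DICER1 then cuts the hairpin to the mature microRNA. LIN28 binds let-7 hairpins through a cold shock domain and a pair of zinc knuckles, which contact GAU-like and GGAG-like letters of the terminal loop, and blocks their maturation. Mature let-7 represses growth genes and accumulates as cells differentiate.

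All 10 hairpins matched the RefSeq table (GRCh38.p14), and their 5′ arms give 7 distinct mature sequences that share 1 seed. Several are printed here. The hairpins that give let-7f-5p differed in the LIN28 data, while those that give let-7a-5p all lacked a called LIN28 peak. Capitals mark the seed, bases 2 to 8.
hsa-let-7a-5p: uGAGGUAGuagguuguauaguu
hsa-let-7f-5p: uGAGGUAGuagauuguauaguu
hsa-let-7i-5p: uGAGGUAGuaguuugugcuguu
hsa-miR-98-5p: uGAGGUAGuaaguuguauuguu
let-7a-5p is the product of 3 hairpins, MIRLET7A1, MIRLET7A2 and MIRLET7A3, and let-7f-5p of 2, MIRLET7F1 and MIRLET7F2. let-7i-5p was the least like let-7a-5p, with 4 of 22 positions different, and the others differed from it at 1 or 2 positions. The following 4 carried a LIN28 peak in both LIN28 libraries, and capitals mark GAU and GGAG between the end of the 5′ mature sequence and the letters UAACU that open the 3′ arm.
MIRLET7F1: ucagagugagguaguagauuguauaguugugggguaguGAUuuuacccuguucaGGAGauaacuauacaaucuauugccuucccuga
MIRLET7G: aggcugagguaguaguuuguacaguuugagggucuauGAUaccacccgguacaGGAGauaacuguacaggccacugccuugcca
MIRLET7I: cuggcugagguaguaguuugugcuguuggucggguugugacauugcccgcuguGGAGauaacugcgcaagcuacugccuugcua
MIR98: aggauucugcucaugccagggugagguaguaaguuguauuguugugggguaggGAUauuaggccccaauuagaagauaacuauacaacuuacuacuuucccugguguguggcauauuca
The next 2 carried none, and are shown with the same marks.
MIRLET7F2: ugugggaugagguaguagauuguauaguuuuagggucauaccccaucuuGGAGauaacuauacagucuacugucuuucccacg
MIRLET7A1: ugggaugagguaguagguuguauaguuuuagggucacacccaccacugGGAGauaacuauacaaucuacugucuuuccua

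LIN28 and DGCR8 held nearly all of the enriched let-7 peaks. A peak was called significant where its −log10 p reached 3 and its log2 fold over input reached 3, which is 8-fold, both being the authors' own values for each peak. Of the 127 let-7 peaks 66 were significant, and 60 of these came from the 4 LIN28 and DGCR8 libraries. In DGCR8 wt 33 of 33 let-7 peaks were significant, where 4.16% of all its peaks were, and in DGCR8 FLAG 12 of 15 were, where 1.78% of all its peaks were. Only 5 of these 12 also reached a −log10 p of 5, where 1.01% of all DGCR8 FLAG peaks did. In LIN28 wt the count was 6 of 10 against 4.73% of all peaks, and in LIN28 V5 it was 9 of 12 against 10.6% of all peaks. The let-7 windows gave 2.40% of all significant peaks in DGCR8 wt and 2.63% in DGCR8 FLAG, and 0.297% and 0.116% in LIN28 wt and LIN28 V5.

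The other 21 libraries had 57 called let-7 peaks, of which 6 were significant. FMR1 wt had 1 of 4 where 5.23% of its peaks were significant, and FMR1 FLAG had 2 of 3 where 17.2% were. FLAG-only at 50 to 125 kDa had 1 of 1 (background 3.75%), FLAG-only at 150 to 225 kDa had 1 of 3 (background 11.5%) and V5-only at 125 to 200 kDa had 1 of 1 (background 11.5%). None of these 6 peaks lay at a hairpin. They were in an interval beside MIRLET7F2 that is described further on. No let-7 peak was significant among the 4 called in HNRNPC wt (background 2.15%) or the 5 of its V5-tagged isoform 1 (0.760%) and the 1 of isoform 2 (1.97%). The same held for the 5 called in RBFOX2 wt (7.03%) and the 2 called in RBFOX2 V5 (4.0%). Over the 14 tag-only libraries together 3 of 33 called let-7 peaks were significant, where 5.44% of all their peaks were. With a log2 fold of 2 as the limit the count was 8, where 13.1% of all their peaks passed.

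**Figure D1:**
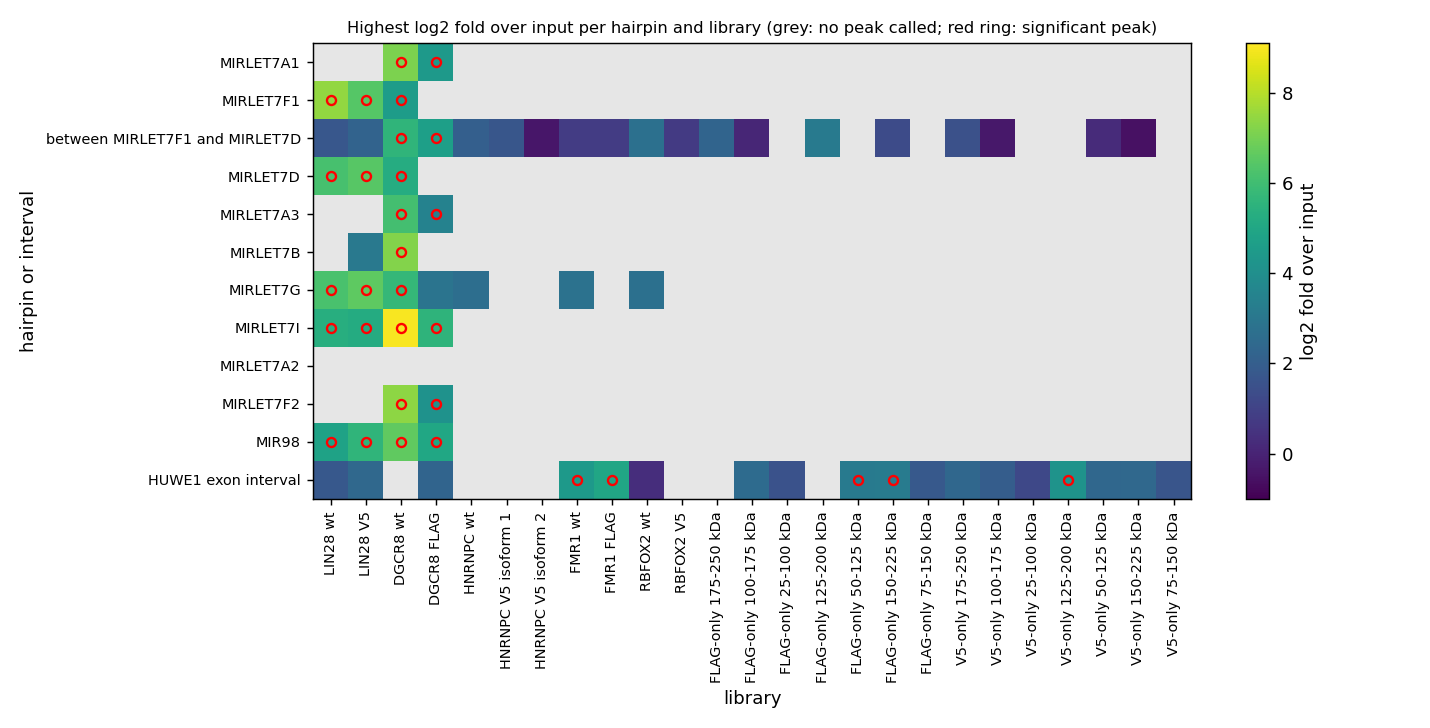
Highest log2 fold over input (colour) at each let-7 hairpin, and at the intervals beside them, in each of the 25 libraries. Grey marks no called peak and a red ring a significant peak. At the hairpins the rings are confined to the LIN28 and DGCR8 columns, and MIRLET7A2 has no called peak in any library.

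Peaks were placed at single hairpins within a window without hairpin positions on hg19, by order and spacing. In the RefSeq table the 3′ ends of MIRLET7A1 and MIRLET7F1 lie 397 nt apart and those of MIRLET7F1 and MIRLET7D 2487 nt. Among the DGCR8 wt peaks of chromosome 9 a set of 3 had 3′ ends 400 nt and 2487 nt apart, a summed misfit of 3 nt, where the next best set missed by 397 nt. The LIN28 wt peaks at the latter pair of hairpins ended 2487 nt apart as well, and those of LIN28 V5 2488 nt apart. In the windows of 2 hairpins the peaks were divided at the widest gap between significant peaks, of 637 nt on chromosome 22 and 515 nt on chromosome X, since neighbouring hairpins lie 863 nt and 850 nt apart.

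LIN28 was enriched at the same 5 hairpins with either antibody, MIRLET7F1, MIRLET7D, MIRLET7G, MIRLET7I and MIR98. At MIRLET7F1 LIN28 wt had a peak from 96938679 to 96938708 with a log2 fold of 7.48, at rank 17 of 42707 peaks in its list. The LIN28 V5 peak there, from 96938677 to 96938708, had a log2 fold of 6.43 at rank 195 of 73182. MIRLET7F1 thus gave the top LIN28 wt value among the 10 hairpins, and it is the hairpin whose product is also made from MIRLET7F2.

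MIRLET7G, which lies in an intron of WDR82 in GENCODE 29, had a pair of LIN28 wt peaks. The peak toward the 3′ side, from 52302299 to 52302332, had a log2 fold of 6.20, and the peak toward the 5′ side, from 52302346 to 52302376, had 4.39. In LIN28 V5 the same stretch was split into 3 adjoining peaks from 52302278 to 52302374, with log2 folds of 6.59, 6.20 and 3.86 from the 3′ side to the 5′ side. In both libraries the fold was higher on the 3′ side.

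MIRLET7D, the most downstream hairpin of the chromosome 9 cluster, had a LIN28 wt peak from 96941173 to 96941195 with a log2 fold of 6.17. In LIN28 V5 it had 3 adjoining peaks from 96941160 to 96941196, with log2 folds of 6.49, 5.67 and 5.64. At MIRLET7I the log2 fold was 5.34 in LIN28 wt (62997518 to 62997552) and 5.20 in LIN28 V5 (62997508 to 62997552), the peaks ending at the same base. MIR98, an intronic hairpin of the ubiquitin ligase gene HUWE1, had 4.84 in LIN28 wt (53583202 to 53583248) and 5.61 in LIN28 V5 (53583197 to 53583247). All of these hairpin peaks had −log10 p values of at least 3, the lowest being 4.60 in LIN28 wt and 3.76 in LIN28 V5, both at the 5′ side of MIRLET7G.

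MIRLET7B was called in LIN28 V5 only, from 46509606 to 46509642, with a log2 fold of 3.10 and a −log10 p of 1.91, which missed the threshold. No LIN28 peak was called at MIRLET7A1, MIRLET7A2, MIRLET7A3 or MIRLET7F2 in either library. For MIRLET7A1, MIRLET7A3 and MIRLET7F2 the transcript itself was recovered in DGCR8 wt, with highest log2 folds of 7.11, 6.08 and 7.39. MIRLET7A2, which lies within MIR100HG, had no called peak in any of the 25 libraries, so no peak here bears on its transcript. Read depth is unknown in these lists, and a hairpin without a called peak was not shown to be unbound.

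The letters GAU and GGAG were looked up in each hairpin. GAU between the 5′ mature sequence and UAACU was present in 4 of the 5 hairpins enriched in both LIN28 libraries, in MIRLET7B, and in none of the 4 hairpins without a LIN28 peak. The enriched hairpin that lacked it was MIRLET7I, printed above, which thus had the same letters, GGAG without GAU, as MIRLET7A1, MIRLET7A2 and MIRLET7F2. GGAG in the same stretch was present in 4 of the 5 enriched hairpins and in 3 of the 4 without a peak, and was lacking in MIR98, MIRLET7B and MIRLET7A3. The strand of the transcript alone was searched. A GAU that runs into UAACU, as in GGAGAUAACU, was left out. Counted anywhere in the hairpin, GAU is in all 10 members and in 62.8% of the 1090 RefSeq hairpins of 72 to 119 nt, and GGAG is in 7 members and in 43.0% of those hairpins. The stretch was defined with the LIN28 peaks known, so these counts are a description of 10 related sequences.

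DGCR8 was enriched at 9 of the 10 hairpins with the native antibody. In the window, or part of it, given to 6 of them, it had several peaks with gaps between them. The number of peaks per hairpin depends on how peaks were placed. On chromosome 9 only peaks within 50 nt of the fitted DGCR8 wt peaks counted as at a hairpin. Elsewhere every DGCR8 wt peak of the window, or of the part given to a hairpin, counted. The highest value belonged to MIRLET7I. It had DGCR8 wt peaks from 62997352 to 62997404 and from 62997509 to 62997547, 2 blocks with 104 nt between them, and the highest log2 fold was 9.01 in the upstream block, at rank 16 of 33029. In the downstream block it reached 8.67. DGCR8 FLAG had a peak in each block, with log2 folds of 5.56 (62997378 to 62997396, rank 60 of 25723) and 4.85 (62997513 to 62997546).

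On chromosome X DGCR8 wt had 4 peaks in the part of the window given to MIRLET7F2 and 3 in the part given to MIR98. In the MIRLET7F2 part the highest log2 fold was 7.39, from 53584229 to 53584295. Peaks at 53584161 to 53584191 and 53584017 to 53584098 followed downstream with 5.23 to 5.78. In the MIR98 part the peaks from 53583443 to 53583501, 53583280 to 53583341 and 53583065 to 53583130 had 6.55, 6.65 and 5.81. DGCR8 FLAG had 5.0 and 3.55 in the MIR98 part. In the MIRLET7F2 part it had 4.13 at a significant peak and 2.85 at a peak that was not significant. A HUWE1 exon of 46 nt ends 107 nt before MIRLET7F2 (83 nt), and MIR98 (119 nt) follows after 850 nt. If this exon is the 46 nt interval described further on, several DGCR8 wt peaks fall outside the hairpins. These are 53584017 to 53584098, 53583443 to 53583501 and 53583065 to 53583130. The DGCR8 FLAG peaks with 4.13, 2.85 and 3.55 then do so too, and the DGCR8 wt peak with 7.39 lies mostly upstream of MIRLET7F2.

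On chromosome 22, where both hairpins lie in an exon of the noncoding gene MIRLET7BHG, DGCR8 wt had 3 peaks at each hairpin. MIRLET7B had log2 folds of 7.21, 5.97 and 5.65 from 46509457 to 46509767, and MIRLET7A3 had 5.78, 5.78 and 6.08 from 46508399 to 46508819. At MIRLET7B 1 gap, of 195 nt, was wider than the hairpin of 83 nt. At MIRLET7A3 both gaps, of 141 nt and 156 nt, were wider than the hairpin of 74 nt. Without hairpin positions on hg19 it was not shown whether a hairpin lies in any of these gaps. MIR4763, another hairpin of 92 nt, lies 28 nt upstream of MIRLET7B, and the peaks upstream of MIRLET7B were not divided between them. DGCR8 FLAG had 1 peak here, at MIRLET7A3, with a log2 fold of 3.48 and a −log10 p of 3.0, just inside the threshold, and none at MIRLET7B.

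MIRLET7G had 5 DGCR8 wt peaks across 352 nt, with log2 folds of 3.33, 4.78, 5.72, 4.97 and 3.78 from low to high coordinate, so that the peak in the middle was highest. Its DGCR8 FLAG peak, from 52302164 to 52302201, had a log2 fold of 2.90 and a −log10 p of 2.58 and was not significant. In the chromosome 9 cluster, under the 50 nt rule, DGCR8 wt had a single peak at each hairpin. The log2 folds were 7.11 at MIRLET7A1, 4.57 at MIRLET7F1 and 5.26 at MIRLET7D. DGCR8 FLAG had a peak at MIRLET7A1, with 4.48, and no called peak at MIRLET7F1 or MIRLET7D. With peaks placed in this way MIRLET7F1 had the lowest DGCR8 wt value among the 9 enriched hairpins. The next DGCR8 wt peak downstream of it, from 96938911 to 96938969, had 5.20 and was counted as between hairpins. MIRLET7F1 had the top value among the 10 hairpins in LIN28 wt, but in LIN28 V5 it came after MIRLET7G and MIRLET7D.

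**Figure D2:**
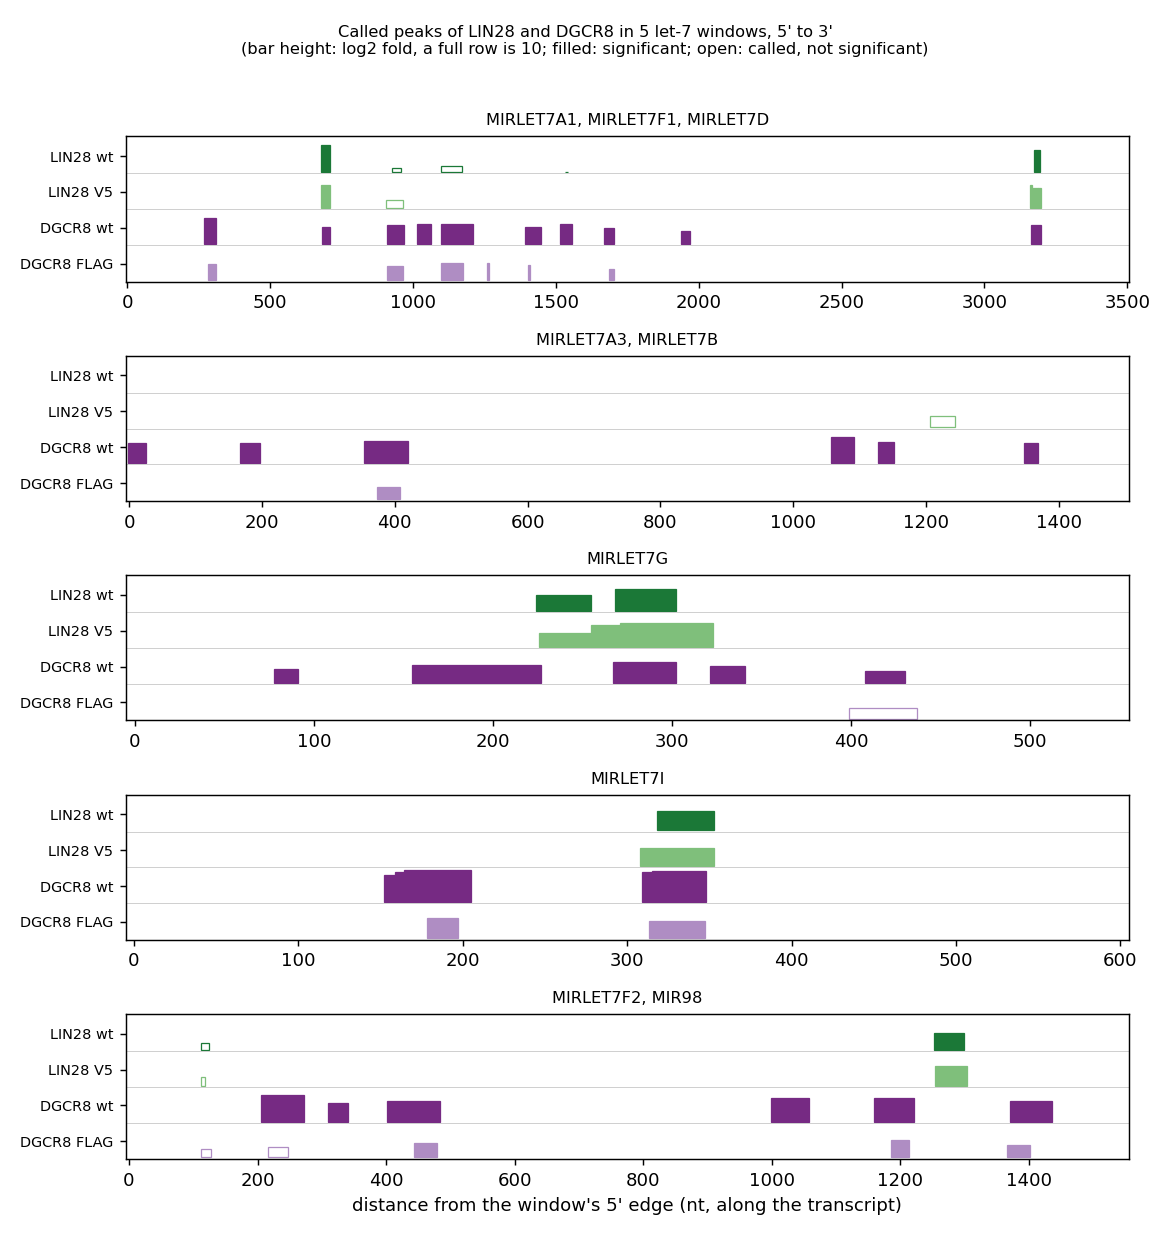
Called peaks of the LIN28 and DGCR8 libraries along 5 let-7 windows, as distance in nt from the 5′ edge of the window. Bar height is the log2 fold over input, filled bars are significant and open bars are not. Filled LIN28 bars fall at 5 hairpins, filled DGCR8 wt bars at 9, and a row of 7 DGCR8 wt bars stands between MIRLET7F1 and MIRLET7D.

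DGCR8 was also enriched over a stretch of the chromosome 9 transcript that holds none of the 10 hairpins. Between MIRLET7F1 and MIRLET7D, DGCR8 wt had 7 significant peaks from 96938911 to 96939970 with log2 folds between 3.65 and 5.62, covering 386 nt. DGCR8 FLAG had 5 significant peaks over 164 nt there, with log2 folds between 3.13 and 4.72, and 4 of them overlapped a DGCR8 wt peak. The stretch began 202 nt and ended 1261 nt downstream of the last base of the DGCR8 wt peak at MIRLET7F1. In GENCODE 29 a noncoding gene of 1435 nt, AL158152.1, begins 24 nt past MIRLET7F1. LIN28 wt and LIN28 V5 had highest log2 folds of 1.72 and 2.20 at called peaks of this stretch, and none was significant.

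Between MIRLET7F1 and MIRLET7D most other libraries had called peaks that did not pass the threshold. All 7 libraries of HNRNPC, FMR1 and RBFOX2 had a called peak somewhere between the 2 hairpins, that of FMR1 FLAG lying past the end of the DGCR8 stretch (96940055 to 96940083), with the highest log2 fold per library between −0.39 and 2.72 and a median of 0.81. Of the 14 tag-only libraries 8 had one, with the highest log2 fold per library between −0.56 and 3.16 and a median of 0.78. The value of 3.16 was in FLAG-only at 125 to 200 kDa and had a −log10 p of 1.29. DGCR8 wt and DGCR8 FLAG were thus the only 2 of the 25 libraries with a significant peak between these hairpins.

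LIN28 and DGCR8 peaks met at 4 hairpins and lay apart at 1. LIN28 wt peaks overlapped DGCR8 wt peaks at MIRLET7F1 (26 nt shared), MIRLET7D (23 nt), MIRLET7I (30 nt) and MIRLET7G (34 nt at the 3′ side and 3 nt at the 5′ side). The 3′ edges of the overlapping peaks differed by 1 nt at MIRLET7F1, 1 nt at MIRLET7D and 5 nt at MIRLET7I, and at the 3′ side of MIRLET7G they were the same base. At MIR98 the LIN28 peaks of both libraries lay inside the gap of 149 nt between neighbouring DGCR8 wt peaks and overlapped neither. Of the 6 significant LIN28 wt peaks 5 overlapped a significant DGCR8 wt peak, and 15.2% of the 33 DGCR8 wt peaks overlapped a significant LIN28 wt peak. Such shares were not computed over the whole lists.

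Few places in the transcriptome were significant in all 4 libraries. When all peaks of a strand with gaps of at most 100 nt were joined, the 25 lists gave 302562 regions. Significant peaks of both LIN28 and both DGCR8 libraries fell into 5 of them, and 3 of the 5 were in let-7 windows, at MIRLET7I, at MIR98 and at MIRLET7F1 with part of the stretch downstream of it. These 3 had no significant peak in any of the other 21 libraries, and the remaining regions of the 5 did. Within the region at MIRLET7F1 the DGCR8 FLAG peaks lay downstream of the hairpin, and within that at MIR98 no LIN28 peak overlapped a DGCR8 peak. Of these 3 regions only that at MIRLET7I had overlapping peaks of all 4 libraries. Requiring both LIN28 libraries and DGCR8 wt gave 13 regions, 5 of them in let-7 windows.

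In the let-7 windows the V5 antibody returned every significant LIN28 wt peak, and the FLAG antibody a part of the significant DGCR8 wt peaks. All 6 significant LIN28 wt peaks overlapped a significant LIN28 V5 peak (100%, 95% Wilson interval 61.0% to 100%), and 8 of 9 LIN28 V5 peaks overlapped LIN28 wt. The ninth was the most upstream of the 3 at MIRLET7D. For DGCR8, 12 of 33 wt peaks overlapped a FLAG peak (36.4%, 22.2% to 53.4%), and 11 of 12 FLAG peaks overlapped wt (91.7%, 64.6% to 98.5%). When 50% of both peaks had to be shared these became 18.2% and 50.0%. By rank within its own list, MIRLET7I went from 0.0484% in DGCR8 wt to 0.233% in DGCR8 FLAG, MIRLET7A1 from 0.254% to 0.645% and MIRLET7A3 from 0.708% to 5.74%, the last being the DGCR8 FLAG call at a hairpin closest to the threshold. The part of the window given to MIRLET7F2 went from 0.221% to 1.15% and that given to MIR98 from 0.400% to 0.432%. The best peak between MIRLET7F1 and MIRLET7D ranked higher in DGCR8 FLAG, at 0.529%, than in DGCR8 wt, at 1.01%. In that stretch and at MIRLET7F2 the best peaks of the 2 libraries did not overlap. The DGCR8 wt peaks that overlapped the best DGCR8 FLAG peaks ranked at 1.16% and 0.890%. Over the top DGCR8 wt peak of MIRLET7F2 the DGCR8 FLAG peak was not significant and ranked at 24.2%. The intervals cover counting error only, and adjoining peaks are not independent. DGCR8 FLAG had 457 significant peaks in all and DGCR8 wt 1375, while LIN28 V5 had 7780 and LIN28 wt 2020. DGCR8 FLAG thus had fewer significant peaks along the whole transcriptome, and the part of this in the lower share was not tested. The share overlapped among all significant peaks of each list was not computed, so the let-7 shares cannot be set against it.

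MIRLET7G was the one hairpin called outside LIN28 and DGCR8. HNRNPC wt, FMR1 wt and RBFOX2 wt each had 1 peak there, within 52302352 to 52302375, with log2 folds of 2.64, 2.81 and 2.72 and −log10 p values of 1.29, 1.27 and 1.15. They were not significant, and lay inside the stretch of the weaker LIN28 wt peak at the 5′ side. None of the 14 tag-only libraries had a called peak at any of the 10 hairpins.

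The enriched peaks of the remaining libraries were all in 1 interval of 46 nt, from 53584343 to 53584388 on the minus strand of chromosome X, upstream of MIRLET7F2. In GENCODE 29 the HUWE1 exon next to MIRLET7F2 on its upstream side is also 46 nt long, and ends 107 nt before the hairpin. FLAG-only at 50 to 125 kDa and V5-only at 125 to 200 kDa each had 1 peak of exactly this interval, with log2 folds of 3.12 and 4.18. FMR1, a protein known for binding coding sequence of messenger RNAs, had 4.47 in wt (53584369 to 53584388) and 4.99 in FLAG (53584358 to 53584388).

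The interval was called in 12 of the 14 tag-only libraries and significant in 3. The highest log2 fold per library ran from 1.53 to 3.21 with a median of 2.52 in the 5 FLAG-only libraries with a peak, and from 1.20 to 4.18 with a median of 2.36 in the 7 V5-only libraries. LIN28 wt, LIN28 V5 and DGCR8 FLAG had 1.78, 2.40 and 2.26 there, none of them significant, and DGCR8 wt had no called peak. The interval was defined by the 2 tag-only peaks that match its ends, after the data were seen.

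**Figure D3:**
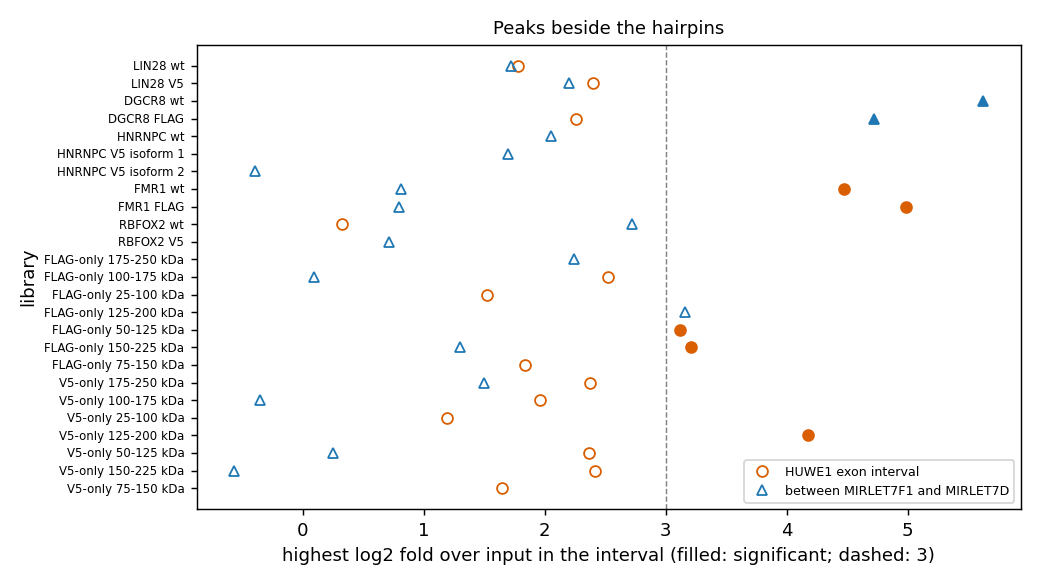
Highest log2 fold over input per library (horizontal axis) in the 46 nt interval upstream of MIRLET7F2 (circles) and anywhere between MIRLET7F1 and MIRLET7D (triangles). Filled symbols are significant, libraries without a symbol had no called peak, and the dashed line is a log2 fold of 3. Only the DGCR8 libraries have filled triangles, and FMR1 and 3 tag-only libraries have filled circles.

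Regions outside the windows were ranked by how closely their highest log2 fold per library followed the mean of the 5 let-7 loci with a significant peak, over the 25 libraries and with 0 where no peak was called. Of 14639 regions significant in at least 2 libraries, the closest was on chromosome 13 from 50620561 to 50620610 on the minus strand (Pearson r = 0.89). Its log2 folds were 3.12 in LIN28 wt, 4.82 in LIN28 V5 and 4.69 in DGCR8 wt, and no peak above input was called in DGCR8 FLAG. The next 4 were on chromosome 3 from 48786932 to 48786984 on the minus strand (r = 0.86), chromosome 12 from 54427782 to 54428006 on the plus strand (r = 0.85), chromosome 1 from 95362602 to 95362712 on the minus strand (r = 0.82) and chromosome 19 from 52197524 to 52197723 on the plus strand (r = 0.81). None of the 5 was significant in all 4 LIN28 and DGCR8 libraries. Most of the 25 values are 0 in such regions, so few libraries set r. The value of a locus was its highest peak anywhere in the window, so the mean also holds peaks beside the hairpins. On chromosome X the values of FMR1 wt (4.47), FMR1 FLAG (4.99) and 12 tag-only libraries came from the 46 nt interval upstream of MIRLET7F2.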

How the data were processed

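Peak lists of 25 eCLIP libraries of HEK293T cells were used, 1 list per library, so peaks had not been called on pooled libraries. Of the 43 samples 18 were inputs, used only as the denominator of the authors' values. The deposited −log10 p of each peak was capped at 400, and 29 significant let-7 peaks shared a value of 15.7, which other let-7 peaks exceeded. The deposited log2 fold compared the immunoprecipitation with its input. Cutadapt, STAR, GATK, Picard and SAMtools and the build hg19 are named per the submitters' processing notes, without versions. For the peak caller, name and version are not given in the sources. Read depth is unknown, so no limit of detection can be given.

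Windows, threshold and sequence stretch were chosen with earlier results of these data known. Positions are 1-based. Peaks at MIRLET7A1, MIRLET7F1 and MIRLET7D were those within 50 nt of the 3 DGCR8 wt peaks that fitted the hairpin spacing. RefSeq (GRCh38.p14) and GENCODE 29 gave sequences, names, lengths and distances only. No coordinates were converted, and the fixed list of pathway genes was not used because no gene positions on hg19 were at hand. All 10 members are named, each with its highest peak in the LIN28 and DGCR8 libraries, together with the 5 regions of most similar profile. Shares carry 95% Wilson intervals. Alternatives were other thresholds, 50% overlap, the opposite strand, merged peaks and other summaries of a locus. Joining of peaks at the same position and ranking by r were tried on simulated data with planted profiles. Joining across gaps of up to 100 nt was not tried there. Python 3.11.15, numpy and scipy were used.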

Additional observations from a re-analysis of the deposited data

Results flagged for a closer look

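In the 46 nt interval upstream of MIRLET7F2, V5-only at 125 to 200 kDa had a log2 fold of 4.18, far from the other 6 V5-only libraries, whose highest was 2.41. The peak of this library was 1 of the 2 that defined the interval, so its high value there is not an independent observation. Of 6 sets of tag-only values examined this way 1 had a value apart. Chance gives about 1 in 20 for each set, and 1 of 6 was not shown to exceed it. In this library 11.5% of all peaks were significant, the highest share among the V5-only libraries.

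The number of significant let-7 peaks was 3 higher in LIN28 V5 than in LIN28 wt, and it changed by −21 from DGCR8 wt to DGCR8 FLAG. The opposite directions were not tested, as there was 1 library for each protein and tag state.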

How the results depend on the processing

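No paired analysis was possible because no result comes from a test, each protein and tag state having 1 library. FLAG-only and V5-only libraries share 7 gel ranges, whose 7 inputs are labelled by range with no antibody named, and were not compared with each other. The windows held no peak on the opposite strand, where the count was 0 in LIN28 wt, LIN28 V5, DGCR8 wt, DGCR8 FLAG, the other 7 libraries of RNA-binding proteins and the 14 tag-only libraries. With the −log10 p required to reach 5, the significant peaks of DGCR8 FLAG went from 12 to 5. At a log2 fold of at least 2 those of the tag-only libraries went from 3 to 8, and their sum of loci from 3 to 6. With peaks at most 50 nt apart merged, LIN28 V5 went from 9 to 5 sites. Without the 46 nt interval, a choice made after seeing the data, the other 7 libraries of RNA-binding proteins went from 3 significant peaks and 2 loci to 0 and 0, and the tag-only libraries from 3 and 3 to 0 and 0. Over the loci with a peak, the median of the highest log2 folds was 5.77 in LIN28 wt, 5.61 in LIN28 V5, 7.21 in DGCR8 wt and 4.72 in DGCR8 FLAG. It was 4.30, 5.20, 5.81 and 3.55 with the median peak of each locus, and 4.76, 5.20, 6.13 and 3.69 with a mean weighted by peak length. With 50% of both peaks shared, the share of DGCR8 wt peaks overlapped by FLAG was 18.2% in place of 36.4%, and the share of DGCR8 FLAG peaks overlapped by wt was 50.0% in place of 91.7%. The cause of these changes was not tested. The other counts and shares recomputed stayed within 1.5 times their value or within their interval.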
